A study of Mus musculus with 18 samples.

Results

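The 10 genes described here belong to the methionine salvage route and to the steps that feed it or depend on it: *Mtap*, *Mri1*, *Apip*, *Enoph1*, *Adi1*, *Mat2a*, *Mat2b*, *Prmt5*, *Srm* and *Sms*. They were picked out by gene name from the 35275 genes of the read-count table, by a rule that uses no measured value, though it was written with earlier results of these data known. All 10 passed the filter on low counts and were among the 15207 genes tested. RNA was sequenced from primary cell lines of malignant peripheral nerve sheath tumors (MPNSTs), sarcomas of the nerve sheath. In 129 Sv/Jae mice an adenovirus carrying Cas9 and guide RNAs had been injected into the sciatic nerve, with guides against *Nf1* and p53 (*Trp53*) for the genotype *Nf1*-/-;*p53*-/- (*Nf1/p53* dKO) and against *Nf1* and *Cdkn2a* for *Nf1*-/-;*Cdkn2a*-/- (*Nf1/Cdkn2a* dKO). Both genotypes thus carry the *Nf1* knockout, the lines were grown in the same medium without treatment, and there was no line with intact *Nf1*. Each genotype had 3 lines, every one grown from its own tumor and passaged many times, and each line was sequenced from 3 cultures, which gave 18 libraries of 19560535 to 28312207 counts. The animals' ages are not given in the sources used here.

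Methionine is turned into S-adenosylmethionine (SAM), the methyl donor of the cell, by methionine adenosyltransferase. When SAM is decarboxylated and used to build the polyamines spermidine and spermine, methylthioadenosine is left over, and MTAP (methylthioadenosine phosphorylase) cleaves it so that the salvage enzymes can return it to methionine. Human *MTAP* lies beside *CDKN2A* and is often lost with it in tumors, and methylthioadenosine that builds up without MTAP inhibits the arginine methyltransferase PRMT5. The comparison between genotypes therefore addressed whether *Mtap*, which lies beside *Cdkn2a* on mouse chromosome 4, was still transcribed in the *Nf1/Cdkn2a* dKO lines, and how the genes around it stood.

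Marker transcripts of mesenchymal cells were abundant, with *Vim* at 4730 to 10200 CPM (counts scaled to the library size) in the 6 lines. Of the Schwann lineage markers *Sox10* reached at most 5 counts in any culture, while *Ngfr* was at 64.3 CPM in *Nf1/p53* dKO line 2 and near 1 CPM or below in the other 5 lines. Of the leukocyte markers *Ptprc* reached at most 16 counts and *Cd68* stood at 1.96 to 7.14 CPM. Read counts per gene did not check the Cas9 cuts, because a small insertion or deletion can leave a transcript: *Cdkn2a* itself was counted at 169, 392 and 285 CPM across *Nf1/Cdkn2a* dKO lines 1, 2 and 3, against 363, 279 and 42.9 CPM across the *Nf1/p53* dKO lines. *Trp53* was lower in all 3 *Nf1/p53* dKO lines (58.7 to 94.1 CPM) than in the *Nf1/Cdkn2a* dKO lines (185 to 247 CPM), with an adjusted p of 0.0361 in edgeR's quasi-likelihood test on the 6 lines. *Nf1*, targeted in every line, was at 12.7 to 70 CPM. *Nf1/Cdkn2a* dKO lines 1 and 2 held reads of the Y-linked *Ddx3y* (5020 and 5484) and hardly any of *Xist* (9 and 13), while the other 4 lines held 25454 to 56357 reads of *Xist* and at most 1 of *Ddx3y*. This split by sex moves with genotype in part and touches the X-linked genes *Sms* and *Sat1* below.

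*Mtap* was transcribed at a high level in all 6 lines and did not differ detectably between genotypes. *Mtap* (ENSMUSG00000062937, chromosome 4, 89137122 to 89181081 in GRCm38, plus strand) had 346, 327 and 503 CPM across *Nf1/p53* dKO lines 1, 2 and 3. It had 348, 527 and 396 CPM across *Nf1/Cdkn2a* dKO lines 1, 2 and 3. No culture lacked the transcript, since the lowest count was 6778, in a culture of *Nf1/Cdkn2a* dKO line 1, and the highest 13227. The groups overlapped, and each genotype had 1 line that stood above its other 2. The means were 392 ± 97 CPM (SD, n = 3 lines) and 424 ± 92.8 CPM (SD, n = 3 lines). Relative to the *Nf1/p53* dKO mean, the *Nf1/Cdkn2a* dKO lines held 88.8, 135 and 101% of the *Mtap* level, and the *Nf1/p53* dKO lines themselves 88.2, 83.4 and 128%.

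The log2 fold change of *Mtap*, given throughout as *Nf1/Cdkn2a* dKO over *Nf1/p53* dKO, was 0.11 with a standard error of 0.24 and a 95% interval of -0.46 to 0.69, which is a ratio between 0.726 and 1.61 (adjusted p = 0.81, quasi-likelihood test of edgeR, Benjamini-Hochberg over 15207 genes). The interval does not show that the levels were alike, and it bounds a lower level in the *Nf1/Cdkn2a* dKO lines at 0.726 of the *Nf1/p53* dKO level. Without *Nf1/Cdkn2a* dKO line 2, the highest of the 6, the log2 fold change was -0.07. Between cultures of 1 line *Mtap* varied by at most 1.09-fold, while lines of 1 genotype spanned 1.54-fold and 1.52-fold, so most of the spread lay between lines. These p-values measure the spread between the 6 lines. In bulk RNA, fewer cells with a transcript and less of it per cell cannot be told apart. The one annotated gene that overlaps *Mtap*, the intronic pseudogene *Gm12607* on the other strand, had 13 reads over all libraries.

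The level of *Mtap* and that of *Cdkn2a* had the same order among the *Nf1/Cdkn2a* dKO lines and differed in order in 1 *Nf1/p53* dKO line. *Cdkn2a* starts 93.4 kb beyond the end of *Mtap*, and the *Mtap* level was 0.952, 1.17 and 11.7 times that of *Cdkn2a* in CPM across *Nf1/p53* dKO lines 1, 2 and 3. In the *Nf1/Cdkn2a* dKO lines the same ratio of CPM was 2.06, 1.35 and 1.39. These ratios are not corrected for length, and they show that 1 line stood apart. It was *Nf1/p53* dKO line 3, which had the lowest *Cdkn2a* (42.9 CPM) and the lowest *Cdkn2b* (6.16 CPM, against 45.6 to 69.1 CPM in the other 5 lines) and at the same time the 2nd highest *Mtap* (503 CPM). *Cdkn2b*, an inhibitor of CDK4 and CDK6 encoded 125.2 kb beyond *Mtap*, had 68, 69.1 and 63.5 CPM across the *Nf1/Cdkn2a* dKO lines and a log2 fold change of 0.97 ± 0.67 (SE, adjusted p = 0.437).

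On the other side, the nearest listed gene that passed the filter on low counts was *Klhl9*, at -414.7 kb from *Mtap* (a negative distance lies before its start). *Klhl9*, an adaptor of a ubiquitin ligase, had 47.4, 52.2 and 51 CPM across the *Nf1/p53* dKO lines, against 66.1, 53.8 and 67.6 CPM across the *Nf1/Cdkn2a* dKO lines (log2 fold change 0.32 ± 0.14, SE, adjusted p = 0.254). *Ifne*, at -256.9 kb, had at most 6 counts in a culture and was not tested. In edgeR's test on the lines none of the 9 listed neighbors that were tested passed the threshold. DESeq2 on the same lines called *Mllt3*, at -1103.8 kb (log2 fold change 1.01, adjusted p = 0.013). It also called *Focad*, at -726.1 kb (log2 fold change -0.61, adjusted p = 0.0294), beside 14.3% of all genes. Without *Nf1/p53* dKO line 1 edgeR called *Mllt3* too (log2 fold change 1.34, adjusted p = 0.0486). With any other line left out edgeR did not call *Mllt3* (adjusted p of 0.161 to 0.254). *Dmrta1*, at 498.4 kb, had the largest log2 fold change of the 9 (2.54 ± 0.75, SE, adjusted p = 0.121 in edgeR's test on the lines). It had 1.39, 0.594 and 1.7 CPM across the *Nf1/p53* dKO lines, against 12.3, 7.23 and 1.85 CPM across *Nf1/Cdkn2a* dKO lines 1, 2 and 3. Line 3 of *Nf1/Cdkn2a* dKO was thus near the *Nf1/p53* dKO lines, and the lowest culture had 10 counts. All 9 were counted in all 3 *Nf1/Cdkn2a* dKO lines. The plot of the chromosome 4 neighbors sets these levels beside each other.

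**Figure D1:**
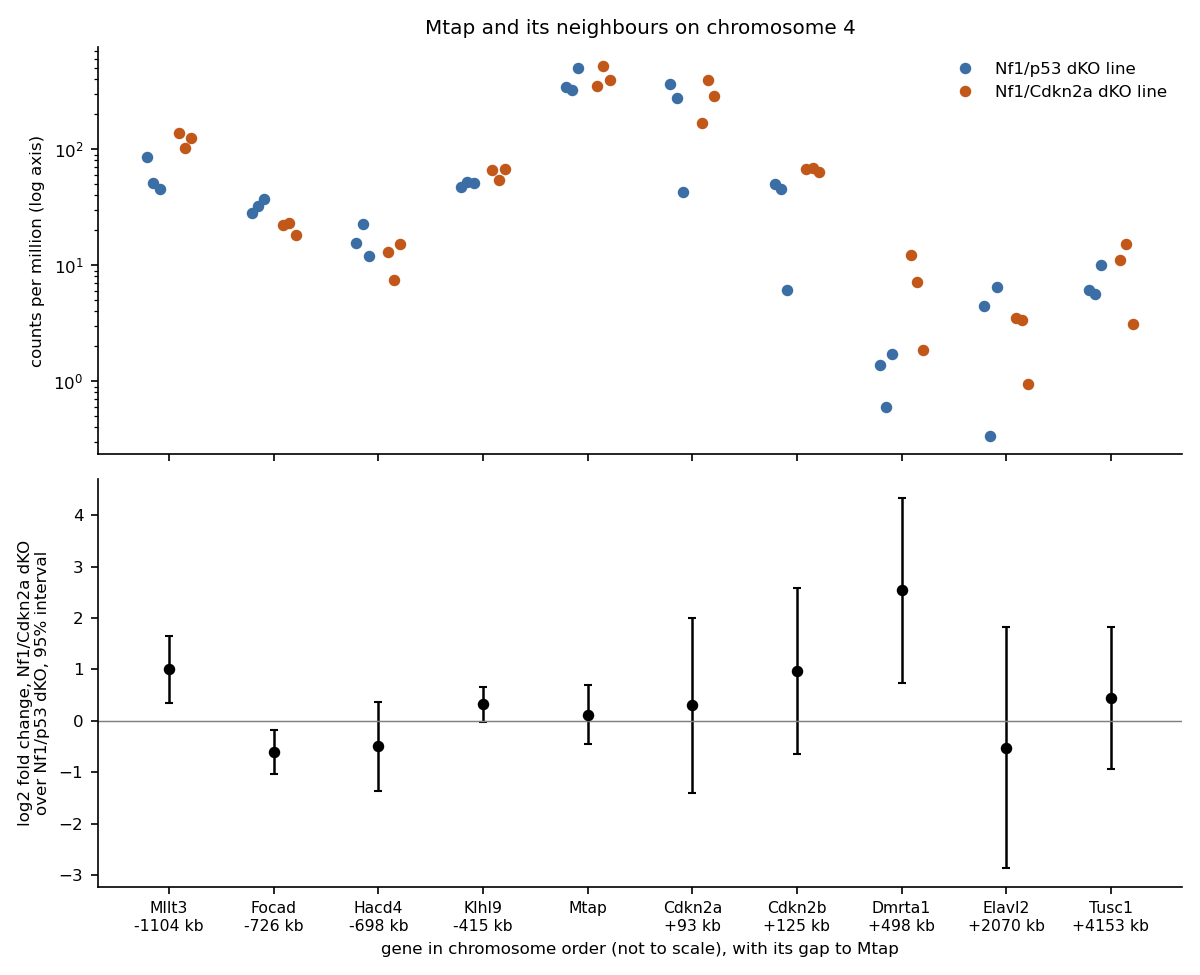
*Mtap* and its tested chromosome 4 neighbors in chromosome order. Upper panel, CPM in each line on a log axis, blue for *Nf1/p53* dKO and orange for *Nf1/Cdkn2a* dKO; lower panel, fitted log2 fold change with its 95% interval. *Mtap* sits between 327 and 527 CPM in all 6 lines, and the low *Cdkn2a* and *Cdkn2b* values belong to *Nf1/p53* dKO line 3.

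By length, *Mtap* was the most abundant of the 10 members. On the scale of CPM per kb of annotated exon, averaged over the 6 lines, *Mtap* stood at 126 (lines 101 to 163), at percentile 97.8 of the 15119 tested genes with a length. *Srm* followed at 96.4 CPM per kb (lines 59.6 to 123) and *Mat2a* at 64.9 CPM per kb (lines 57.1 to 76.8). Each of these 3 overlapped its neighbor in the order. *Prmt5* came next at 28.3 CPM per kb (lines 16.1 to 39.7), below every *Mat2a* value. *Adi1* (21.1), *Sms* (21), *Apip* (18.8) and *Enoph1* (15.5 CPM per kb) overlapped one another and *Prmt5*. *Mat2b* (10.4) and *Mri1* (10.1 CPM per kb) had the lowest means and overlapped each other. Their highest lines (13.1 and 15 CPM per kb) lay above the lowest lines of *Enoph1* (12.1) and *Adi1* (12.5 CPM per kb).

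None of the 4 salvage enzymes that follow MTAP passed in edgeR's test on the lines. *Mri1*, the isomerase that takes the product of MTAP, had 33.1, 22 and 49.2 CPM across *Nf1/p53* dKO lines 1, 2 and 3, against 35.6, 36.9 and 21.1 CPM across *Nf1/Cdkn2a* dKO lines 1, 2 and 3. Its lines spanned 2.24-fold and 1.75-fold within a genotype, and the groups overlapped (log2 fold change -0.16 ± 0.35, SE, 95% interval -0.99 to 0.68). *Apip*, the dehydratase of the next step, had 21.2, 19.1 and 22.8 CPM across the *Nf1/p53* dKO lines, against 16.3, 17.2 and 16 CPM across the *Nf1/Cdkn2a* dKO lines. All 3 *Nf1/Cdkn2a* dKO lines of *Apip* lay below the 3 *Nf1/p53* dKO lines, while single cultures overlapped (17.6 to 25.3 CPM, median 21.1, against 13.6 to 18.3 CPM, median 16.5). Its log2 fold change was -0.35 ± 0.17 (SE, 95% interval -0.74 to 0.05) with an adjusted p of 0.273 in edgeR's test on the lines, and it was called where the 18 cultures were taken as separate samples (adjusted p = 0.00129 in edgeR and 3.8e-05 in DESeq2).

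*Enoph1*, the enolase-phosphatase of the route, had 31.2, 52.6 and 37.9 CPM across the *Nf1/p53* dKO lines, against 41.7, 39.8 and 30.5 CPM across the *Nf1/Cdkn2a* dKO lines. The groups overlapped, with a log2 fold change of -0.12 ± 0.24 (SE, 95% interval -0.69 to 0.45). *Adi1*, the dioxygenase that makes the keto acid precursor of methionine, had 57.7, 41.2 and 23.5 CPM across the *Nf1/p53* dKO lines, against 41.6, 41.3 and 33.4 CPM across the *Nf1/Cdkn2a* dKO lines. Its *Nf1/p53* dKO lines 1 and 3 were the highest and the lowest of the 6, and the log2 fold change was -0.07 ± 0.32 (SE, 95% interval -0.84 to 0.7). Of 4 listed genes at the end of the salvage, *Kyat1*, *Kyat3* and *Il4i1* were tested and *Tat* had no count in any library. *Il4i1* had the highest log2 fold change (0.27 ± 0.64, SE) and *Kyat3* the lowest (-0.63 ± 0.38, SE) of these 3, and *Il4i1* is uncertain because it overlaps exons of *Atf5*, *Tbc1d17* and *Nup62*.

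Neither subunit of the enzyme that makes SAM passed in edgeR's test on the lines. *Mat2a*, the catalytic subunit of the methionine adenosyltransferase outside liver, had 287, 263 and 291 CPM across the *Nf1/p53* dKO lines, against 305, 344 and 256 CPM across the *Nf1/Cdkn2a* dKO lines. It had the narrowest spread over the 18 cultures of the 10 members, 1.41-fold from lowest to highest, and the groups overlapped (log2 fold change 0.11 ± 0.16, SE, 95% interval -0.26 to 0.48). An annotated transcript, *Particl*, overlaps *Mat2a* exons on the opposite strand, and whether the counting used strand is not given in the sources used here. *Mat2b*, the regulatory subunit, had 43.2, 49.4 and 65.6 CPM across the *Nf1/p53* dKO lines, against 46.8, 42.2 and 64.6 CPM across the *Nf1/Cdkn2a* dKO lines. Line 3 was the highest of each genotype, though line numbers do not pair the lines, and the log2 fold change was -0.04 ± 0.23 (SE, 95% interval -0.6 to 0.51).

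Of 10 listed genes of the methionine cycle around SAM, 7 were tested and none passed in edgeR's test on the lines. *Mtr*, methionine synthase, had the highest log2 fold change of these (0.1 ± 0.19, SE). *Ahcyl2*, a relative of the enzyme that clears S-adenosylhomocysteine, had the lowest, with 29.6, 42.3 and 26.8 CPM across the *Nf1/p53* dKO lines, against 14, 18.1 and 19.9 CPM across the *Nf1/Cdkn2a* dKO lines (log2 fold change -0.93 ± 0.24, SE, adjusted p = 0.0955). The lines of *Ahcyl2* did not overlap, as for 31.4% of all tested genes, and DESeq2 on the same lines called it (adjusted p = 0.0109). Among 3 genes of methionine uptake, the log2 fold change was highest for *Slc3a2* (0.17 ± 0.16, SE) and lowest for *Slc43a2* (-1.22 ± 0.53, SE, adjusted p = 0.238), an amino acid transporter with 6.55, 6.58 and 11.2 CPM across the *Nf1/p53* dKO lines, against 2.42, 1.8 and 6.18 CPM across the *Nf1/Cdkn2a* dKO lines.

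*Prmt5*, which sets symmetric dimethylation of arginine, varied more between lines than between genotypes. It had 63.7, 132 and 157 CPM across the *Nf1/p53* dKO lines. It had 114, 126 and 81.2 CPM across the *Nf1/Cdkn2a* dKO lines. *Nf1/p53* dKO line 1 was the lowest of the 6 and line 3 of that genotype the highest, a span of 2.47-fold, and the log2 fold change was -0.14 ± 0.35 (SE, 95% interval -0.97 to 0.69, adjusted p = 0.842). Of 4 PRMT5 partners, all tested, *Riok1* had the highest log2 fold change (0.15 ± 0.15, SE) and *Wdr77*, the constant partner of PRMT5, the lowest (-0.47 ± 0.22, SE, adjusted p = 0.267). *Wdr77* had 141, 121 and 161 CPM across the *Nf1/p53* dKO lines, against 110, 121 and 74 CPM across the *Nf1/Cdkn2a* dKO lines, and its exons overlap *Atp5f1* on the opposite strand. Of 8 other arginine methyltransferases, 7 were tested and ranged from -0.49 ± 0.31 (SE, *Prmt7*) to 0.49 ± 0.29 (SE, *Prmt2*) on the log2 scale, with none past the threshold in edgeR's test on the lines.

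**Figure D2:**
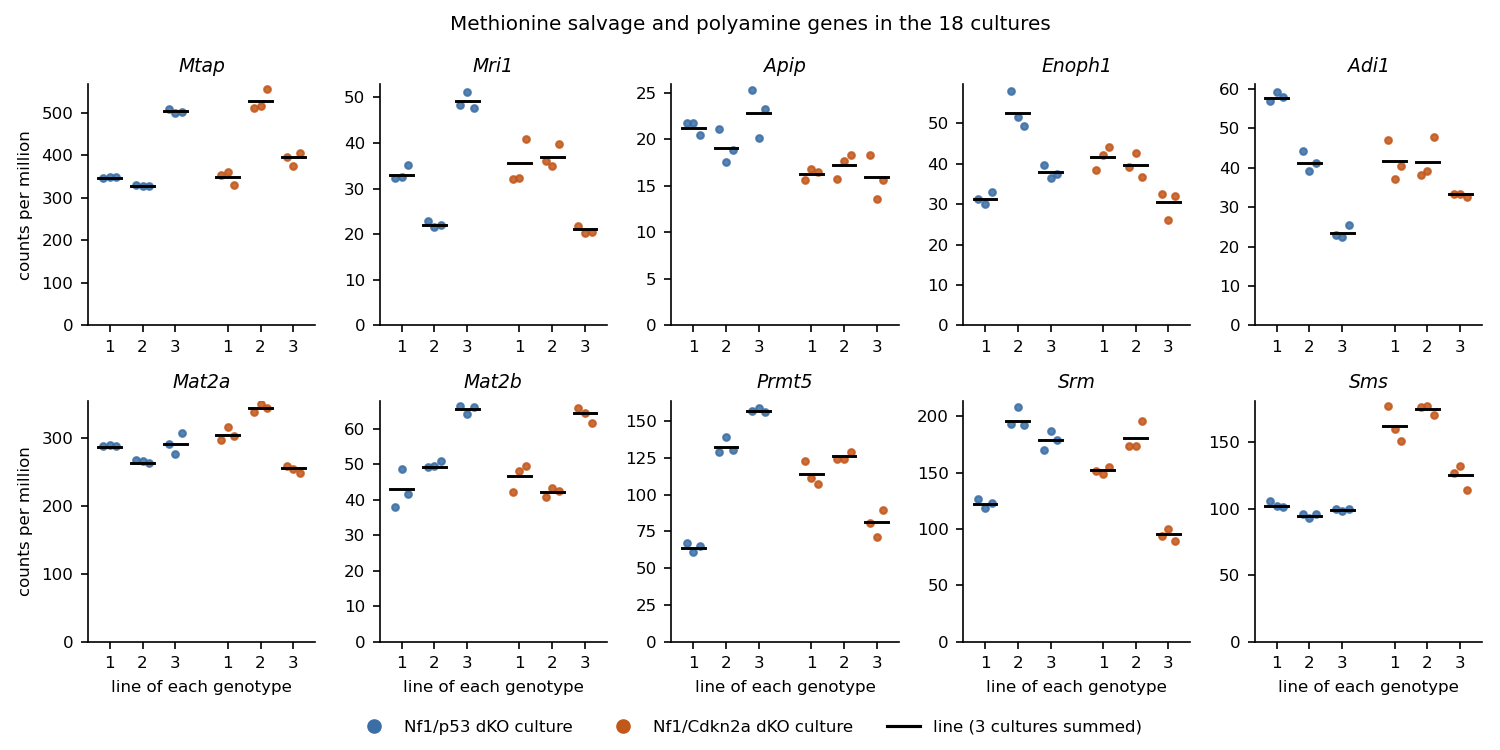
CPM of the 10 members in each of the 18 cultures (dots) by line, with the level of the line from its 3 summed cultures as a bar; the vertical axes start at 0. Only *Sms* has 2 groups of cultures that do not overlap, 93.1 to 106 against 114 to 177 CPM. The lines did not overlap for 31.4% of all tested genes, and the share for cultures was not counted.

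Polyamine synthesis held the member with the lowest p, *Sms*. Spermidine synthase, encoded by *Srm* (chromosome 4, 148591503 to 148594993), adds an aminopropyl group to putrescine, and spermine synthase, encoded by *Sms* (chromosome X, 157443855 to 157492287), adds another to spermidine, and each step releases the methylthioadenosine that MTAP uses. *Srm* had 122, 196 and 179 CPM across the *Nf1/p53* dKO lines, against 152, 181 and 95.2 CPM across the *Nf1/Cdkn2a* dKO lines. Its groups overlapped, with a log2 fold change of -0.21 ± 0.29 (SE, 95% interval -0.9 to 0.47). *Sms* had 102, 94.3 and 99.2 CPM across *Nf1/p53* dKO lines 1, 2 and 3, against 162, 175 and 125 CPM across *Nf1/Cdkn2a* dKO lines 1, 2 and 3. Neither lines nor cultures overlapped, since the cultures ran from 93.1 to 106 CPM (median 99.7) and from 114 to 177 CPM (median 160).

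The means of *Sms* were 98.5 ± 3.89 and 154 ± 25.8 CPM (SD, n = 3 lines each), a log2 fold change of 0.64 ± 0.16 (SE), or 1.56-fold with a 95% interval of 1.2 to 2.04. The p was 0.00566 before and 0.0885 after adjustment over 15207 genes (edgeR's quasi-likelihood test), so *Sms* did not pass the threshold of 0.05. The adjusted p was 0.0109 with DESeq2 on the 6 lines and 0.00411 with limma-voom on the cultures, fitted with a random effect of the line. *Sms* is X-linked, and *Nf1/Cdkn2a* dKO line 3, the only line of its genotype with *Xist* reads, had the lowest *Sms* of its genotype (125 CPM) and still lay above every *Nf1/p53* dKO line. Over the 4 lines with *Xist* reads alone the log2 fold change of *Sms* was 0.36 ± 0.22 (SE, adjusted p = 0.632), a comparison with 1 *Nf1/Cdkn2a* dKO line, which is assumed to vary like the others. The part of the sex of the lines in the difference was not tested. Over all 514 tested X-linked genes the median log2 fold change was -0.13, and 5 were called.

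The sequences before the starts of *Sms* and *Sat1* are shown because these X-linked polyamine genes had cultures that did not overlap and windows that hold no annotated exon. They are the 250 bases upstream of the start in RefSeq (GRCm38.p6), chrX:157492288-157492537 for the 1st of 2 listed *Sms* starts and chrX:155216450-155216699 for *Sat1*, both on the minus strand and printed 5′ to 3′ along the gene.
*Sms*: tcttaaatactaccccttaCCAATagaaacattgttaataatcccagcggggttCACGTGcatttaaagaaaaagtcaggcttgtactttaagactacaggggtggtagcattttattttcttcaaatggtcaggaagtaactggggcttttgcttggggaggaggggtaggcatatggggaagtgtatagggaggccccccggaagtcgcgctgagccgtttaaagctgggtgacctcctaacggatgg
*Sat1*: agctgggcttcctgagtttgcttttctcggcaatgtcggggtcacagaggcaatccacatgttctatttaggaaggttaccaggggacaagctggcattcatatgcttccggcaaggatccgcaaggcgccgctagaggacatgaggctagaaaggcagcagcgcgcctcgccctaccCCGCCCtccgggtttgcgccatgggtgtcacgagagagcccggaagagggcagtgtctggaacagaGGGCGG
Capitals mark matches on either strand to the letters of the CCAAT box, of the E-box, which is CACGTG, and of the GC box, for which GGGCGG was searched. Another motif searched was the core of the antioxidant response element (TGACNNNGC), which had no match in either window, and no 2 matches overlapped in these windows. The *Sms* window held 1 CCAAT box and 1 E-box, which begins at position -196 from the start, and the *Sat1* window held 2 GC boxes. Of 32851 promoters of the same length, 6.02% held an E-box, 33.8% a CCAAT box, 32.7% a GC box and 10.2% the antioxidant response element core. Of the 10 members 8 had an entry (*Srm* and *Adi1* had none), and the one E-box among them was that before the 1st *Sms* start. The window of the 2nd *Sms* start (chrX:157491369-157491618) held no E-box and no CCAAT box, but 4 GC boxes. Counts per gene do not show which *Sms* start is used in these lines. These matches describe letters and not sites of binding.

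In the polyamine route *Odc1* and *Sat1*, outside the 10 members, had the highest log2 fold changes, and neither passed the threshold in edgeR's test on the lines. *Azin2* (higher) and *Oaz3*, *Sat2* and *Arg1* (lower), given below, also had fitted differences larger in size than that of any member. *Odc1*, ornithine decarboxylase, which commits ornithine to polyamines, had 514, 383 and 274 CPM across the *Nf1/p53* dKO lines. It had 1090, 1600 and 1010 CPM across the *Nf1/Cdkn2a* dKO lines. Every *Nf1/Cdkn2a* dKO culture (969 to 1640 CPM, median 1040) lay above every *Nf1/p53* dKO culture (269 to 524 CPM, median 392). The lines of 31.4% of all tested genes did not overlap either, and for cultures the share was not counted. The log2 fold change of *Odc1* was 1.66 ± 0.29 (SE, 95% interval 0.95 to 2.36), with an adjusted p of 0.0508 in edgeR's test on the lines and 1.29e-05 in DESeq2 on the same lines. Over all alternatives it stayed between 1.38 and 1.91. The lowest adjusted p, 1.86e-21, came from DESeq2 with the 18 cultures taken as separate samples, where 48.9% of all genes were called. Without *Nf1/Cdkn2a* dKO line 1 the adjusted p in edgeR's test was 0.143.

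*Sat1*, the acetyltransferase that starts the breakdown and export of spermidine and spermine, had 97.9, 50.9 and 34.5 CPM across the *Nf1/p53* dKO lines, against 221, 317 and 296 CPM across the *Nf1/Cdkn2a* dKO lines. Its cultures did not overlap (32.6 to 109 CPM, median 51.6, against 182 to 324 CPM, median 303). The log2 fold change of *Sat1* was 2.19 ± 0.4 (SE, 95% interval 1.23 to 3.14), with an adjusted p of 0.0521 in edgeR's test on the lines and 5.53e-06 in DESeq2 on the same lines. Without *Nf1/p53* dKO line 1, the highest of its genotype, the adjusted p in edgeR's test was 0.0387 and the log2 fold change 2.7. *Sat1* is X-linked too. Over the 4 lines with *Xist* reads its log2 fold change was 2.29 ± 0.57 (SE, adjusted p = 0.407), again with 1 *Nf1/Cdkn2a* dKO line in the comparison, and the part of the sex of the lines in the difference was not tested. The lowest adjusted p of *Sat1* over all alternatives, 1.79e-20, came from DESeq2 with the 18 cultures taken as separate samples. That setting called 48.9% of all genes. With *Nf1/Cdkn2a* dKO line 2 left out, the adjusted p of *Sat1* in edgeR's test was 0.144.

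S-adenosylmethionine decarboxylase, which decarboxylates SAM for polyamine synthesis, is encoded by *Amd1* and its near copy *Amd2*. *Amd1* had 135, 165 and 113 CPM across the *Nf1/p53* dKO lines, against 175, 199 and 185 CPM across the *Nf1/Cdkn2a* dKO lines, with no overlap between lines (log2 fold change 0.44 ± 0.17, SE, adjusted p = 0.203). The lines of 31.4% of all tested genes did not overlap either, and single cultures of *Amd1* did overlap (110 to 172 against 162 to 207 CPM). *Amd2* had a log2 fold change of 0.61 ± 0.24 (SE, adjusted p = 0.195) and is uncertain, because reads can be split between the copies. Of the 6 listed synthesis genes, 4 were tested, and the lowest was *Arg1* (-0.72 ± 1.73, SE). The lowest of the 4 breakdown genes was *Sat2*, at -0.92 ± 0.46 (SE, adjusted p = 0.292).

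None of the 5 control genes of the pathway passed in edgeR's test on the lines. *Oaz1*, the main antizyme that sends ornithine decarboxylase to degradation, had 324, 343 and 393 CPM across the *Nf1/p53* dKO lines, against 309, 328 and 513 CPM across the *Nf1/Cdkn2a* dKO lines, which overlapped (log2 fold change 0.12 ± 0.23, SE). *Azin1*, which blocks antizymes, had 260, 243 and 221 CPM against 235, 171 and 255 CPM, and the groups overlapped as well (log2 fold change -0.13 ± 0.18, SE). *Azin2* was the highest of the 5 (0.65 ± 0.58, SE). *Oaz3* was the lowest (-2.72 ± 0.49, SE, adjusted p = 0.0521), but it had at most 22 counts in a culture and overlaps exons of *Tdrkh* and *Mrpl9* on the opposite strand, so its value is uncertain. DESeq2 on the same lines called *Oaz3* (adjusted p = 0.0079), as did edgeR with upper-quartile factors (0.0497) or raw total counts (0.0443).

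**Figure D3:**
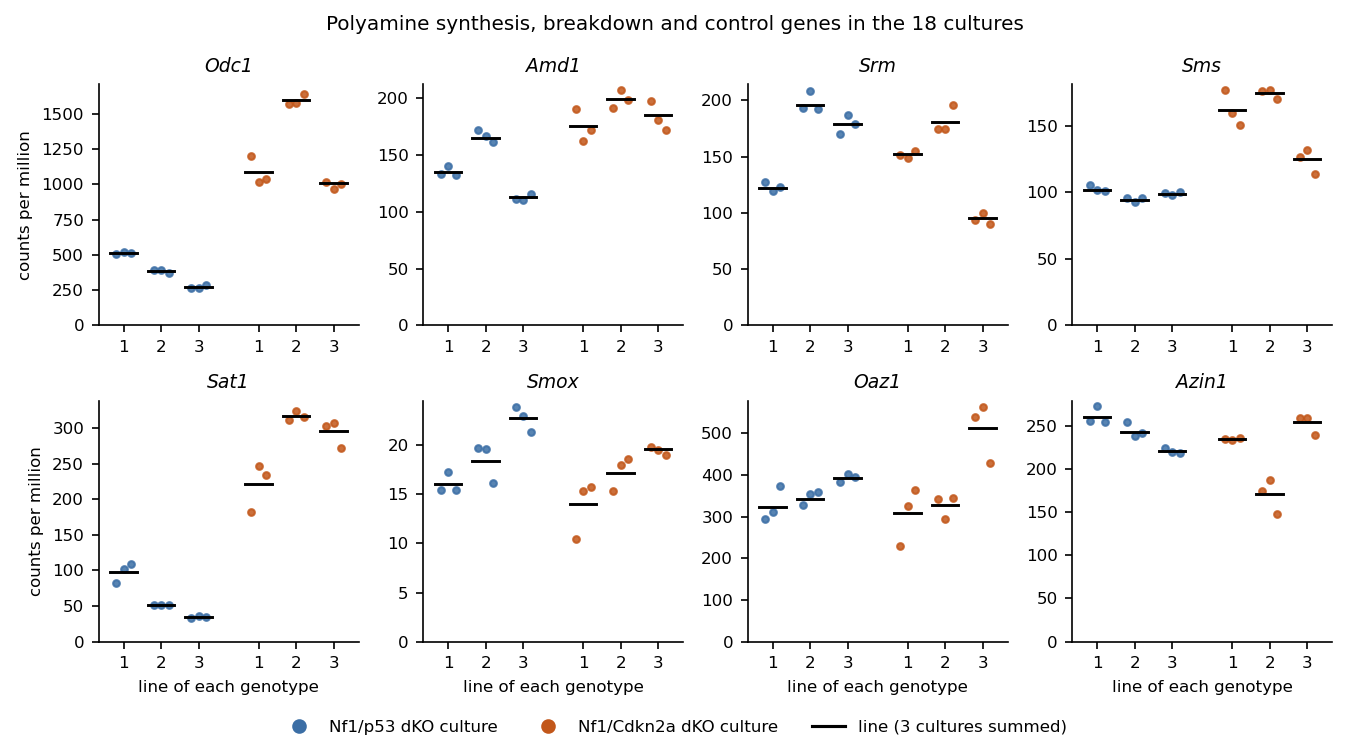
CPM of 8 genes of polyamine synthesis (*Odc1*, *Amd1*, *Srm*, *Sms*), breakdown (*Sat1*, *Smox*) and control (*Oaz1*, *Azin1*) in each culture (dots) by line, with the level of the line as a bar; the vertical axes start at 0. *Odc1*, *Sms* and *Sat1* cultures separate by genotype, at 969 to 1640, 114 to 177 and 182 to 324 CPM in *Nf1/Cdkn2a* dKO. Cultures of *Amd1*, *Srm*, *Smox*, *Oaz1* and *Azin1* overlap. How many of all genes separate by culture was not counted.

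Polyamine transport and hypusine, the modified lysine that spermidine gives to the translation factor eIF5A, were each represented by a short list, and none of their genes passed in edgeR's test on the lines. *Atp13a3*, a lysosomal and endosomal polyamine transporter, had the highest log2 fold change of 3 transport genes (0.49 ± 0.24, SE, adjusted p = 0.287) and *Atp13a2* the lowest (-0.16 ± 0.24, SE). The lines of *Atp13a3* did not overlap, at 100 to 190 CPM in *Nf1/p53* dKO and 195 to 225 CPM in *Nf1/Cdkn2a* dKO. The same held for 31.4% of all tested genes. Of 4 hypusine genes, *Dohh* was highest (0.02 ± 0.15, SE) and *Eif5a2* lowest (-0.73 ± 0.36, SE, adjusted p = 0.283).

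Counted together, 0 of the 10 members passed an adjusted p of 0.05 in edgeR's quasi-likelihood test on the 6 lines, where 1.8% of all tested genes passed. At an unadjusted p of 0.05, 1 member (*Sms*) passed, beside 22.4% of all tested genes. No overlap between the lines of both genotypes was seen for 2 members, *Sms* (higher in *Nf1/Cdkn2a* dKO) and *Apip* (lower), beside 31.4% of all tested genes. The members' counts of 0, 1 and 2 of 10 are not above the shares of all genes. DESeq2 on the 6 lines called 1 member (*Sms*, beside 14.3% of all genes) and limma-voom with a random effect of the line also called 1 (*Sms*, beside 16.6%). Taking the 18 cultures as separate samples, edgeR called 2 members (*Sms* and *Apip*) beside 46.5% of all genes, and DESeq2 the same number beside 48.9%. The median log2 fold change was -0.1 over the members and -0.02 over all tested genes, with 3 members fitted above and 7 below 0.

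Of the 51 related genes, 44 were tested and 0 passed in edgeR's test on the lines. At an unadjusted p of 0.05, 4 were higher in *Nf1/Cdkn2a* dKO (*Odc1*, *Sat1*, *Amd1* and *Amd2*) and 3 lower (*Ahcyl2*, *Mettl16* and *Oaz3*), which is a smaller share than among all genes. *Mettl16*, the RNA methyltransferase that controls *Mat2a* splicing, had a log2 fold change of -0.62 ± 0.23 (SE, adjusted p = 0.187). Limma-voom with a random effect of the line called it (adjusted p = 0.02). In all, that setting called 7 of 42 related genes, beside 16.6% of all genes. They were *Odc1*, *Sat1* and *Amd1*, higher, and *Mettl16*, *Ahcyl2*, *Slc43a2* and *Wdr77*, lower. DESeq2 on the 6 lines called 4 of the 44 (*Odc1* and *Sat1* higher, *Ahcyl2* and *Oaz3* lower). Lines did not overlap for 5 higher and 4 lower genes of the 44, beside 31.4% of all tested genes. The median log2 fold change over the 44 was -0.12. By role the median ran from -0.24 for hypusine to 0.52 for the 4 tested synthesis genes outside the members. These 4 include *Amd1* and its near copy *Amd2*. The plot of fold changes gives the interval of each gene.

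**Figure D4:**
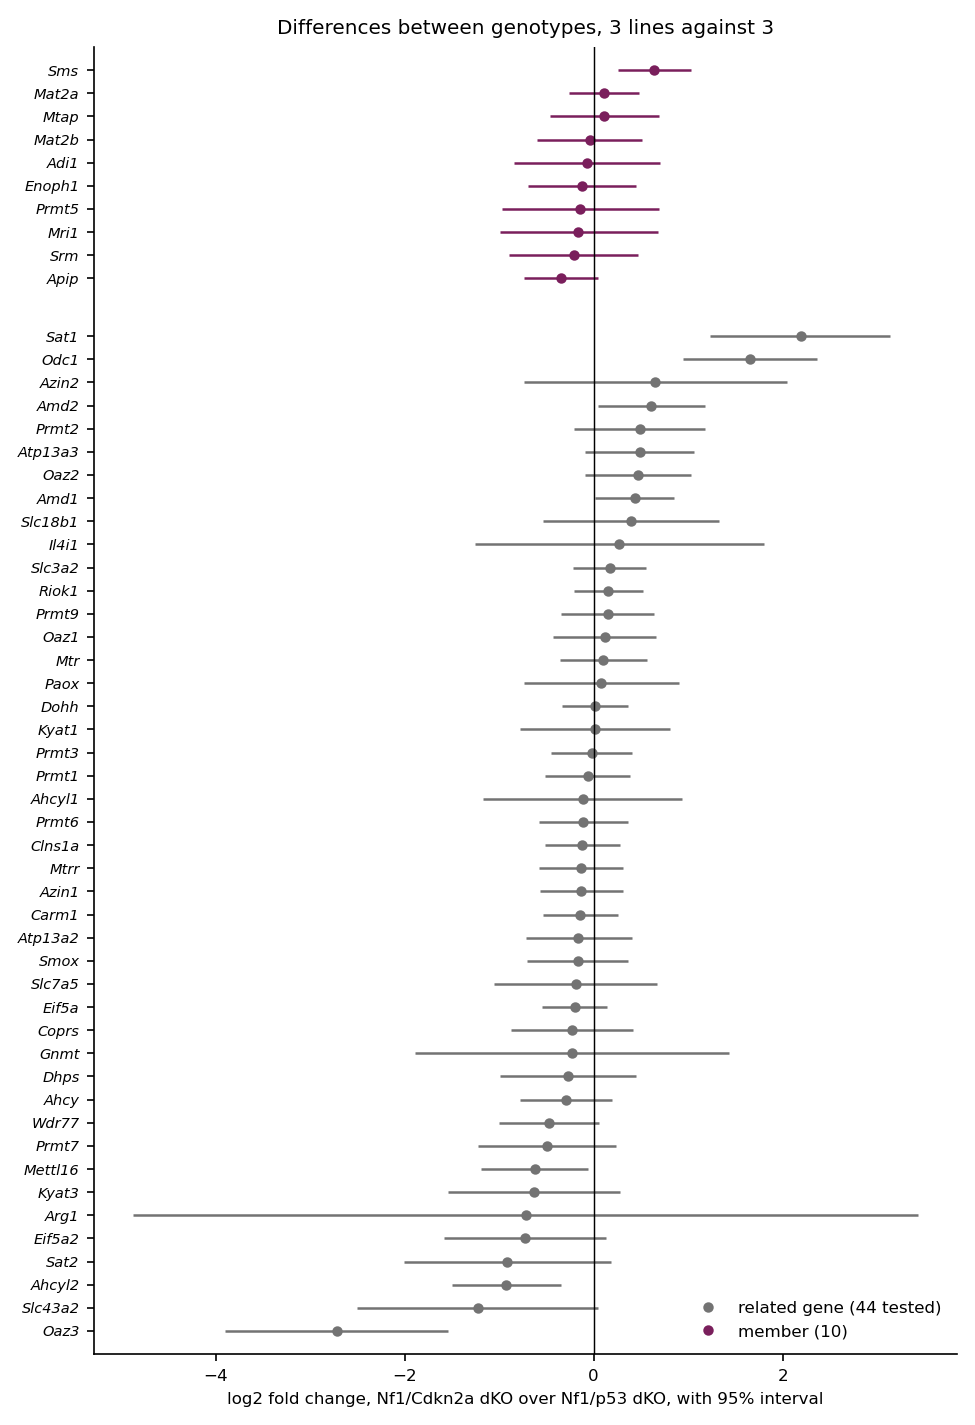
Fitted log2 fold change (horizontal axis, *Nf1/Cdkn2a* dKO over *Nf1/p53* dKO) with its 95% interval for the 10 members (purple) and the 44 tested related genes (grey). Among the members the interval of *Sms* alone lies above 0 and none lies below it.

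The genes whose pattern was most like that of *Mtap* over the 18 cultures were *H2-K1*, *Ndrg1* and *Echs1*, among 9143 genes compared. Pearson's r of log2 CPM with *Mtap* was 0.949 for *H2-K1*, a class I histocompatibility gene, 0.939 for *Ndrg1* and 0.924 for *Echs1*, an enzyme of fatty acid oxidation. The 18 cultures come from 6 lines and share their libraries with *Mtap*, so these values describe the order of the lines only. *H2-K1* had 55.4, 45.1 and 179 CPM across the *Nf1/p53* dKO lines, against 61, 141 and 94.1 CPM across the *Nf1/Cdkn2a* dKO lines, with the same lines high as for *Mtap*.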

How the data were processed

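The authors deposited raw counts, whole numbers of reads per gene for each of the 18 libraries, without normalization. The submitters' processing notes name CASAVA, STAR 2.5, DESeq2 1.14.1 and GRCm38. The counting tool, the annotation and the use of strand are not given in the sources used here. Since its 3 cultures come from 1 tumor, each line was analysed as their summed counts, so n is 3 lines per genotype. Genes were filtered with filterByExpr (minimum count 10, minimum total 15), scaled with TMM and compared with edgeR 4.0.16 (quasi-likelihood test, two-sided, Benjamini-Hochberg, R 4.3.3). Alternatives used DESeq2 1.42.0 and limma 3.58.1. CPM and log2 fold changes were computed here. The sequencing methods and the labels give 3 lines per genotype in triplicate, which was followed, while the statistics section states 2 biological replicates per condition. The table gives no gene length, so levels per kb use GENCODE M21 exons. All 10 members and 51 related genes were found, 4 of the related ones by identifier under an older symbol. Every member is named, and of the related genes those called or highest and lowest in their role, the nearest neighbors of *Mtap* and the 3 genes most like it. Any other gene was named after its values were seen. The members and lists were chosen with earlier results of these data known. Only the edgeR step was tested on simulated counts. These had the same spread setting for every gene, so the test does not show how edgeR performs at the spread of these lines. Intervals cover the spread between lines.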

Additional observations from a re-analysis of the deposited data

How the results depend on the processing

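The alternatives were other tools, scalings and filters, the 18 cultures as samples, a block, each line left out in turn and, chosen after seeing the data, the 4 lines with *Xist* reads. The log2 fold change of *Mtap* ran from -0.07 to 0.34 with 1 line left out and was -0.02 with raw total counts, which moved the median of all genes from -0.023 to -0.158, and no setting called *Mtap*. Members that changed sign, none of them called, did so with 1 line left out (*Mri1* -0.39 to 0.18, *Enoph1* -0.28 to 0.13, *Adi1* -0.35 to 0.26, *Mat2b* -0.24 to 0.15, *Prmt5* -0.43 to 0.13, *Srm* -0.41 to 0.01), with raw total counts (*Mat2a* -0.03), with the line number as replicate block (*Adi1* 0.01) or in the lines with *Xist* reads (*Mat2a* -0.12, *Mat2b* 0.3). *Sms* and *Apip* kept their direction in every setting, and *Odc1* and *Sat1* did too.

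Of the members, 1 was called by DESeq2 on the lines, 2 by edgeR and 2 by DESeq2 on the 18 cultures, 1 by limma-voom and 1 with the culture number as replicate block, against 0 in the main test. Of the related genes, 4 of 44 and then 17, 17, 7 and 5 of 42 were called in these settings. The shares of all genes called were 14.3, 46.5, 48.9, 16.6 and 15.3% in the same order. With upper-quartile factors 1 of 44 related genes was called (2.1% of all genes), and with raw total counts 1 of 44 (2.78%). Without a filter 2 of 49 were called (1.72%), and with 1 line left out 0 to 1 of 44 (0 to 1.11%). Over all genes the 5 settings named for the members called 2171 of 15207 genes, and 6096, 6409, 2173 and 2012 of 13110. Raw total counts called 423 and the main test 274, each of 15207. With 1 line left out edgeR called 0 to 172 genes. It called 172, 27 and 107 without *Nf1/p53* dKO line 1, 2 or 3, and 0, 2 and 23 without *Nf1/Cdkn2a* dKO line 1, 2 or 3. The count of 0 stood beside 2668 genes at an unadjusted p under 0.05. The line number as replicate block also left 0 (2740 unadjusted), and the lines with *Xist* reads 0 (1780 unadjusted). The causes were not tested. Line numbers did not pair the lines (correlations of deviations -0.13 to -0.0832), and culture numbers did not pair cultures (lowest -0.119, highest 0.193). The lowest count of a member in a culture was 280 (*Apip*), and all intervals rest on 3 lines per genotype.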
